A study of Saccharomyces cerevisiae with 16 samples.

Results

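The genes described here encode heat shock proteins and molecular chaperones of budding yeast. They were chosen by gene symbol, as every measured gene whose only symbol on its spot began with one of 32 chaperone stems (such as HSP, SSB, CCT or CPR) followed by nothing but digits. HSP26 was left out of the set. The rule found 45 genes on 47 spots, out of 3127 genes with a value, and used no measured level. CCT8 and SSB1 had 2 spots each, which were averaged. By textbook role 44 of the 45 are chaperones, co-chaperones, folding enzymes or heat shock genes. The other, SIS2, encodes an inhibitor of the protein phosphatase Ppz1 and was caught by its name alone. Genes of the same families without a spot of their own, such as HSP104, are not analysed here.

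Wild-type CDY59 cells in YPD, a rich medium, were kept with 200 mM hydroxyurea for 1, 2, 4 or 6 h. Hydroxyurea inhibits ribonucleotide reductase, which makes the building blocks of DNA, and slows replication. Each 2-colour slide set RNA of treated cells against RNA of untreated cells harvested at optical density 0.5, at which treatment began. For every time treated RNA was in channel 1 on 1 slide and in channel 2 on the other, which gave 8 slides, each read 2 times. The labels name no untreated culture of matched age, so time in culture and treatment cannot be told apart. Nor do they tell if the paired slides came from separate cultures. The p-values measure the spread between slides that is left once a channel difference shared by all times is removed, which may be technical.

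Values are log2 ratios of treated over untreated RNA, centred so that the median gene of a reading is 0. The base of the deposited logarithm is not stated and was taken as log2, and with a natural logarithm all folds would be larger. Errors written with ± are standard errors of a linear model over the 8 slides (limma, with a coefficient per time and 1 for channel orientation). Adjusted p-values are Benjamini-Hochberg values over all 3127 genes, two-sided, with a threshold of 0.05. Where values of a time are given as a pair, the slide with treated RNA in channel 1 comes first. The labels do not state which channel is the numerator. The overall sign was set so that RNR2 and RNR4, subunits of the enzyme that hydroxyurea inhibits and textbook hydroxyurea-induced genes, were positive (2.69 ± 0.34 and 2.55 ± 0.25 in the mean over the 4 times). All directions below are therefore likely and not established.

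Chaperones keep other proteins from aggregating and help them fold. Small heat shock proteins bind unfolded proteins without ATP. Hsp70 proteins bind and release short stretches of their clients in an ATP cycle that J proteins start and nucleotide exchange factors complete, and Hsp90 acts later on more folded clients. Chaperonins such as CCT enclose a client, prefoldin brings clients to CCT, and prolyl isomerases such as cyclophilins (CPR) and FKBPs (FPR) speed a slow step in folding. In yeast, heat and many other stresses induce part of these genes through Hsf1 and Msn2/Msn4. Another part works at the ribosome on newly made proteins in growing cells.

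The chaperone genes did not move as 1 block under hydroxyurea. HSP12 and HSP42 were higher in treated cells, while both SSB genes of the ribosome-associated Hsp70, 3 CCT subunits, the mitochondrial exchange factor MGE1 and the nucleolar isomerase FPR3 were lower. In the mean over the 4 times 3 of the 45 genes rose (HSP12, HSP42 and MPD1), beside 6.97% of all genes tested. A further 7 fell (SSB1, SSB2, CCT3, CCT5, CCT8, MGE1 and FPR3), beside 11.8% of all genes. Both shares lie near those of all genes, and the counts are read as a description of these 45 genes. On the values as deposited, where the median gene stands at 0.20, the split was 10 higher and 7 lower, beside 26.1% and 7.23% of all genes. In that fit all genes were given the same variance, so its calls follow the estimate and not a gene's own spread between slides. After quantile normalization the split was 5 higher and 12 lower, beside 10.2% and 16.9%. Without the orientation term HSP42, MPD1, CCT3 and CCT8 did not pass, which left 1 higher and 5 lower, beside 2.81% and 5.34%. The median of the 45 was -0.05, against 0.01 for all genes. Their median absolute value was 0.22, against 0.16. On the centred values HSP12 and HSP42 were above 0 on all 8 slides (2 of 45 genes, beside 3.93% of all genes). HSP42 stood at only 0.06 on the channel 1 slide of 2 h. The readings of that slide had medians of -0.05 and -0.50 before centring, so the sign of HSP42 there depends on centring. CCT5 was below 0 on all 8 (1 of 45, beside 4.57%). On such slides fewer cells with a transcript cannot be told apart from less of it per cell.

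**Figure D1:**
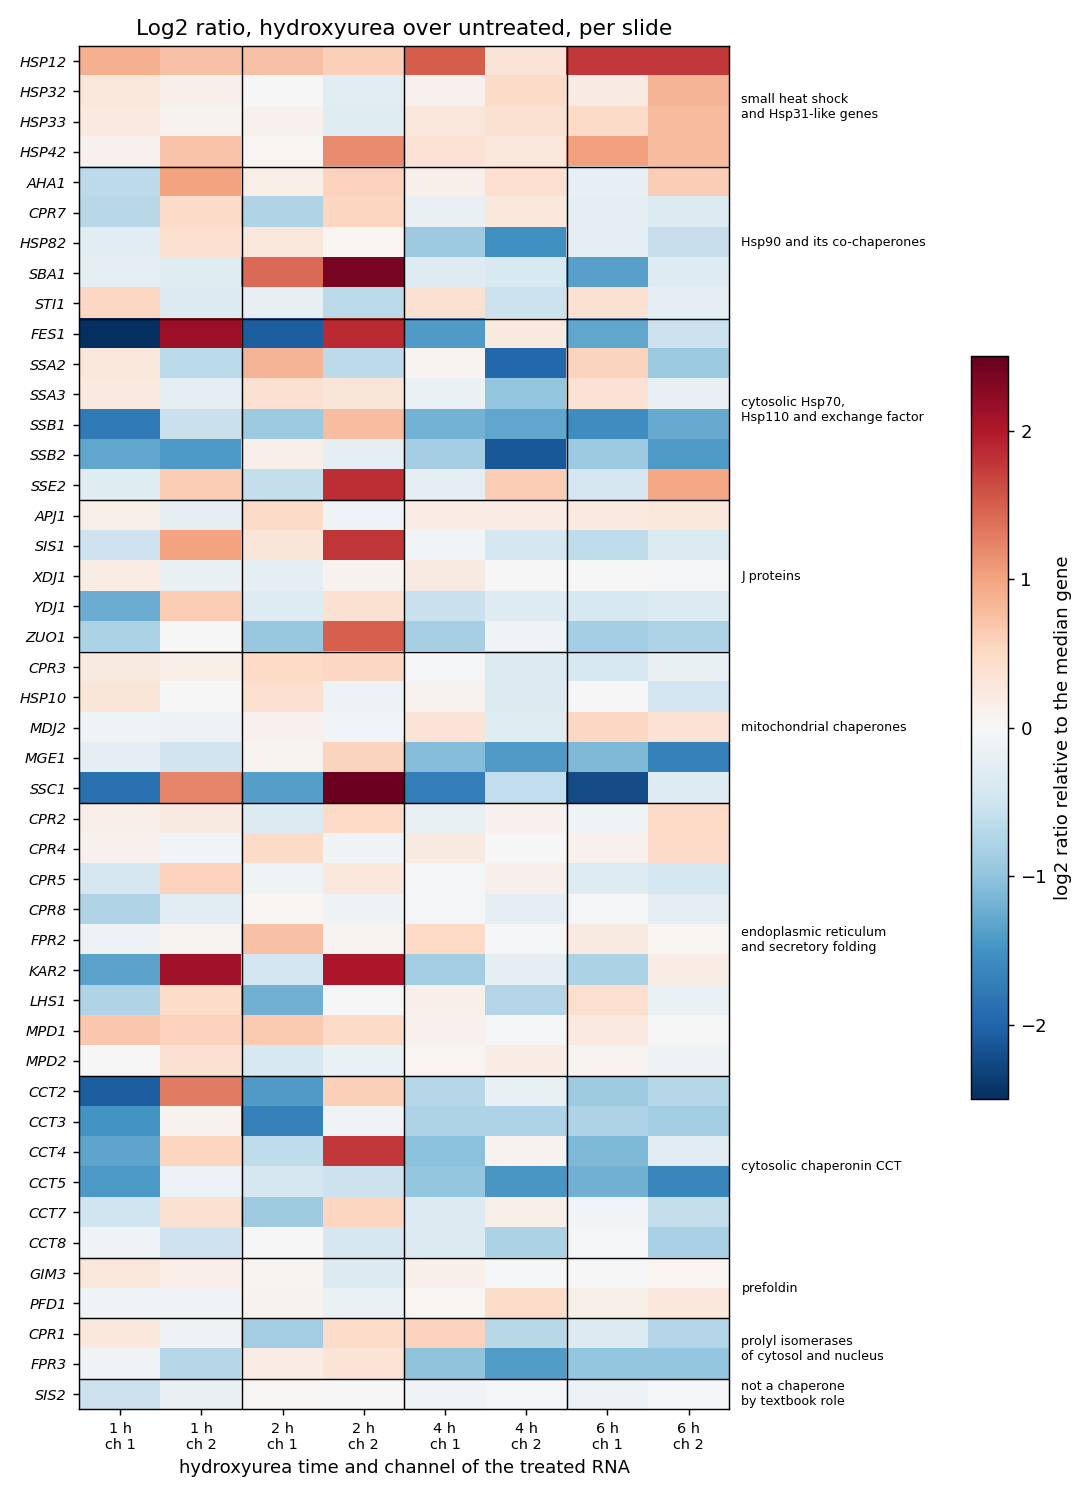
Log2 ratio of treated over untreated RNA of the 45 genes (rows, by role group) on the 8 slides (columns, by hours in hydroxyurea and channel of the treated RNA). Colour runs from lower to higher in treated cells. On the centred values shown, HSP12 and HSP42 are above 0 in every column and CCT5 is below 0 in every column. FES1, SSC1 and KAR2 change colour between the channels at 1 h and 2 h.

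Among the 4 small heat shock and Hsp31-like genes, 2 rose in the mean over the times, and the median of the 4 was 0.41. As deposited all 4 passed as higher, and after quantile normalization 3 did. HSP12 (YFL014W) encodes a small membrane-associated protein that is a standard marker of the general stress response. It read 0.88 and 0.73 at 1 h, 0.72 and 0.59 at 2 h, 1.505 and 0.32 at 4 h, and 1.76 and 1.76 at 6 h. All 8 slides lay above 0, and both slides of 6 h lay above the other 6. Its mean of 1.03 ± 0.11 is a 2.05-fold higher level in treated cells (adjusted p = 0.000804). At 6 h alone it was 1.76 ± 0.22, or 3.39-fold higher (adjusted p = 0.00683).

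HSP42 (YDR171W), the small heat shock protein that gathers misfolded proteins into cytosolic deposits, read 0.11 and 0.71 at 1 h, and 0.06 and 1.19 at 2 h. It read 0.36 and 0.27 at 4 h, and 1.03 and 0.79 at 6 h. The slides of 1 h and 2 h were far apart, with the channel 2 slide the higher, and those of 4 h and 6 h were closer. The mean was 0.56 ± 0.12, a 1.48-fold rise (adjusted p = 0.0171). The call was lost without the channel 1 slide of 1 h, 4 h or 6 h, or the channel 2 slide of 1 h, with adjusted p up to 0.0679.

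HSP32 and HSP33 are near-identical members of the Hsp31 family, so their spots may each read both transcripts. HSP33 read 0.24 and 0.08 at 1 h, 0.10 and -0.30 at 2 h, 0.29 and 0.38 at 4 h, and 0.48 and 0.79 at 6 h. It was above 0 on 7 slides, and its mean of 0.26 ± 0.09 did not pass (adjusted p = 0.0807). Without the channel 2 slide of 2 h the mean was 0.32, and without the channel 1 slide of 2 h it moved as far the other way. Across the 18 alternatives the mean of HSP33 ran from 0.15 to 0.48, and in 13 of them it did not pass. HSP32 averaged 0.22 (adjusted p = 0.158). HSP26, a small heat shock gene outside the set, stood higher than all 45, at 2.15 in the mean, and at 1.21, 1.91, 2.55 and 2.92 at 1, 2, 4 and 6 h.

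**Figure D2:**
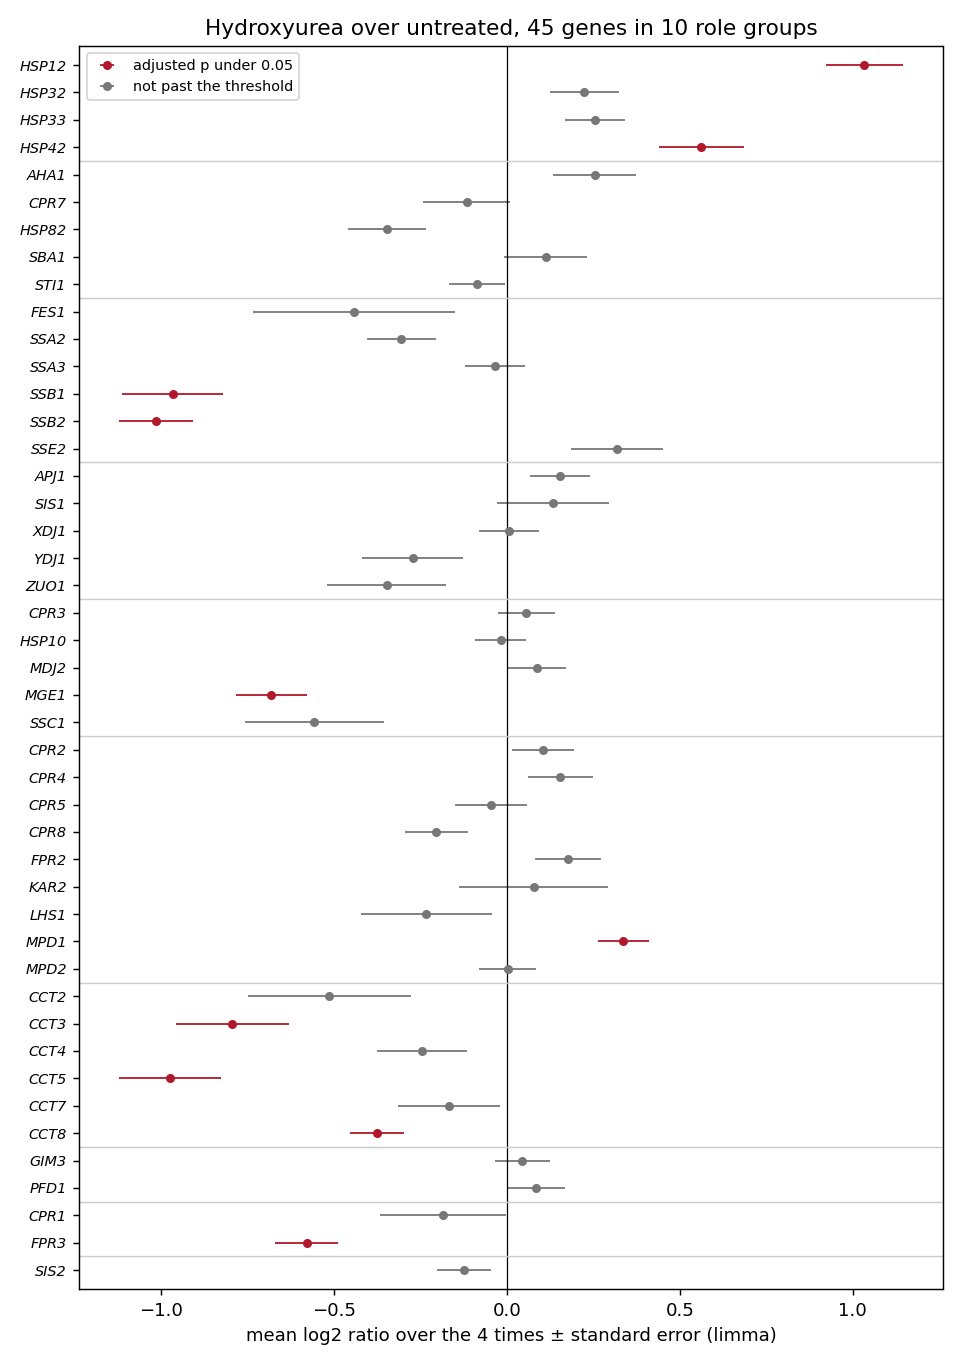
Mean log2 ratio of treated over untreated RNA over the 4 times for each of the 45 genes, by role group, as points with bars of 1 standard error of the model. Points in red passed an adjusted p of 0.05 and grey ones did not. HSP12 stands highest at 1.03, and SSB2, CCT5 and SSB1 lowest at -1.01, -0.97 and -0.97.

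Among the 6 cytosolic Hsp70, Hsp110 and exchange factor genes, SSB1 and SSB2 fell and none rose in the mean. SSE2 passed as higher on the values as deposited and after quantile normalization, where SSA2 also passed as lower (-0.35, adjusted p = 0.0117). The Ssb proteins sit on the ribosome and hold nascent chains as they emerge. SSB2 (YNL209W) read -1.30 and -1.43 at 1 h, 0.14 and -0.23 at 2 h, -0.85 and -2.13 at 4 h, and -0.90 and -1.42 at 6 h. It was low at 1, 4 and 6 h and near 0 at 2 h. The mean was -1.01 ± 0.11, or 2.02-fold lower in treated cells (adjusted p = 0.000672).

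SSB1 (YDL229W) read -1.76 and -0.55 at 1 h, -0.90 and 0.78 at 2 h, -1.19 and -1.30 at 4 h, and -1.56 and -1.25 at 6 h. The channel 2 slide of 2 h was the only one above 0. The mean was -0.97 ± 0.15, or 1.95-fold lower (adjusted p = 0.00385). The coding sequences of SSB1 and SSB2 are nearly the same, so the spots may read both transcripts, and the pair may not count as 2 independent genes. The spots of SSB1 gave means of -1.17 and -0.76, both below 0.

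The other members of this family did not pass in the mean. SSE2, an Hsp110-type exchange factor, read -0.30 and 0.64 at 1 h, -0.60 and 1.85 at 2 h, -0.23 and 0.63 at 4 h, and -0.42 and 0.98 at 6 h. All 4 channel 1 slides were below 0 and all 4 channel 2 slides above it, and the mean was 0.32 ± 0.13 (adjusted p = 0.142). Without the channel 1 slide of 2 h the mean was 0.49, and without the channel 2 slide of 2 h it was 0.15. Across the 18 alternatives the mean of SSE2 ran from 0.15 to 0.51, and in 15 of them it did not pass. SSA2, the constitutive cytosolic Hsp70, averaged -0.30 (adjusted p = 0.0724), and SSA3, a stress-induced member of that family, averaged -0.04 (adjusted p = 0.793). FES1, an exchange factor for Ssa proteins, averaged -0.44 ± 0.29 (adjusted p = 0.305), with slides between -2.48 and 2.13.

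The 5 J proteins gave no call in the mean and had a median of 0.01. As deposited APJ1 passed as higher, and after quantile normalization ZUO1 passed as lower. ZUO1, the J protein that works with Ssb at the ribosome, had the largest absolute mean of the 5. It read -0.80 and -0.01 at 1 h, -0.95 and 1.495 at 2 h, -0.82 and -0.09 at 4 h, and -0.84 and -0.77 at 6 h. It lay below 0 on 7 slides, and its mean of -0.35 ± 0.17 did not pass (adjusted p = 0.196). Without the channel 2 slide of 2 h the mean was -0.59, and without the channel 1 slide of 2 h it was -0.11. Across the 18 alternatives the mean of ZUO1 ran from -0.63 to -0.11, and in 15 of them it did not pass. SIS1, an essential J protein of the cytosol and nucleus, averaged 0.13, and YDJ1, the main cytosolic one, -0.27. APJ1 and XDJ1 averaged 0.15 and 0.01.

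All 6 measured subunits of CCT, the cytosolic ring complex that folds actin and tubulin, had means below 0, with a median of -0.44, except that CCT7 stood at 0.02 on the values as deposited. CCT3, CCT5 and CCT8 fell, of which CCT8 did not pass as deposited (adjusted p = 0.280), and CCT4 fell as well after quantile normalization (-0.30, adjusted p = 0.0311). CCT5 (YJR064W) read -1.44 and -0.15 at 1 h, -0.42 and -0.54 at 2 h, -0.96 and -1.46 at 4 h, and -1.20 and -1.64 at 6 h. No slide was above 0, and its mean of -0.97 ± 0.15 is 1.96-fold lower (adjusted p = 0.00395).

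CCT3 (YJL014W) read -1.50 and 0.10 at 1 h, -1.68 and -0.09 at 2 h, -0.77 and -0.78 at 4 h, and -0.78 and -0.87 at 6 h. The slides of 4 h and 6 h lay close together, whereas at 1 h and 2 h the channel 1 slide was low and the channel 2 slide near 0. The mean was -0.79 ± 0.16, or 1.73-fold lower (adjusted p = 0.0136). The call was lost without the channel 1 slide of 1 h (adjusted p = 0.0693) or the channel 2 slide of 6 h (adjusted p = 0.0635).

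CCT8 (YJL008C) read -0.10 and -0.51 at 1 h, 0.01 and -0.42 at 2 h, -0.35 and -0.79 at 4 h, and -0.03 and -0.82 at 6 h. At every time its channel 2 slide was the lower. The mean was -0.38 ± 0.08, or 1.30-fold lower (adjusted p = 0.0145). Its 2 spots averaged -0.64 and -0.11, so the size of the fall differed between spots. The call was lost without the channel 1 slide of 1 h or 4 h, or the channel 2 slide of 4 h or 6 h, with adjusted p up to 0.0880. CCT2, CCT4 and CCT7 averaged -0.51, -0.25 and -0.17 and did not pass. The prefoldin genes PFD1 and GIM3, whose complex delivers clients to CCT, stayed near the median gene. PFD1 read -0.08 and -0.09 at 1 h, 0.09 and -0.17 at 2 h, 0.05 and 0.46 at 4 h, and 0.14 and 0.27 at 6 h, with a mean of 0.08 (adjusted p = 0.492). GIM3 averaged 0.04 (adjusted p = 0.703).

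Of the 5 mitochondrial genes MGE1 fell. SSC1 passed as lower too as deposited (-0.37), where its own spread between slides did not enter, and after quantile normalization (-0.61). Mge1 is the exchange factor of Ssc1, the matrix Hsp70 that draws proteins across the inner membrane. MGE1 (YOR232W) read -0.25 and -0.50 at 1 h, 0.06 and 0.56 at 2 h, -1.09 and -1.42 at 4 h, and -1.12 and -1.69 at 6 h. All 4 slides of 4 h and 6 h lay below all 4 of 1 h and 2 h. The mean was -0.68 ± 0.10, or 1.60-fold lower (adjusted p = 0.00378). On the slides of 4 h and 6 h alone it was -1.33, and with the 4 times as units the call was lost (adjusted p = 0.162). SSC1 averaged -0.56 ± 0.20 and did not pass (adjusted p = 0.0975), with slides from -2.23 to 2.46. HSP10, the lid of the Hsp60 chaperonin, averaged -0.02, the mitochondrial cyclophilin CPR3 0.06, and the J protein MDJ2 0.09.

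FPR3 (YML074C), a nucleolar FKBP-type prolyl isomerase, read -0.08 and -0.70 at 1 h, 0.19 and 0.34 at 2 h, -1.01 and -1.40 at 4 h, and -0.965 and -0.995 at 6 h. As for MGE1, all slides of 4 h and 6 h lay below all of 1 h and 2 h. The mean was -0.58 ± 0.09, or 1.49-fold lower (adjusted p = 0.00448). On the late slides alone it was -1.09, and with the 4 times as units the call was lost (adjusted p = 0.157). CPR1, the cytosolic cyclophilin A, averaged -0.18 ± 0.18 (adjusted p = 0.485).

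The 9 genes of the endoplasmic reticulum and the secretory path gave 1 call in the mean, and their median was 0.08. As deposited CPR4 and FPR2 passed as higher too. MPD1 (YOR288C), a relative of protein disulfide isomerase, read 0.67 and 0.58 at 1 h, 0.65 and 0.48 at 2 h, 0.12 and -0.05 at 4 h, and 0.24 and 0.02 at 6 h. Its 4 slides of 1 h and 2 h lay above its 4 slides of 4 h and 6 h. The mean was 0.34 ± 0.07, or 1.26-fold higher (adjusted p = 0.0175). The call was lost without any 1 of the 6 slides of 1, 4 and 6 h (adjusted p from 0.0631 to 0.0787). On the slides of 4 h and 6 h alone the mean was 0.08 (adjusted p = 0.475).

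KAR2, the Hsp70 of the endoplasmic reticulum known as BiP and a classical target of the unfolded protein response, averaged 0.08 ± 0.22 (adjusted p = 0.812). Its slides ran from -1.34 to 2.10. The Hsp70-like LHS1 averaged -0.23, the disulfide isomerase relative MPD2 0.00, and the FKBP FPR2 0.18. The secretory cyclophilins CPR2, CPR4, CPR5 and CPR8 averaged 0.10, 0.15, -0.05 and -0.20. None of these passed.

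The 5 genes of the Hsp90 system gave no call in the mean, but 1 call each at 2 h and at 4 h. In the mean AHA1 passed as higher as deposited and HSP82 as lower after quantile normalization. SBA1 (YKL117W), the yeast form of the Hsp90 co-chaperone p23, read -0.22 and -0.30 at 1 h, 1.42 and 2.37 at 2 h, -0.33 and -0.38 at 4 h, and -1.35 and -0.32 at 6 h. It was high on both slides of 2 h and below 0 on the other 6. At 2 h it was 1.90 ± 0.24, or 3.72-fold higher (adjusted p = 0.00783), and its mean over the times was 0.11 (adjusted p = 0.513). HSP82 (YPL240C), 1 of the 2 yeast Hsp90 genes, read -0.26 and 0.41 at 1 h, 0.29 and 0.05 at 2 h, -0.92 and -1.53 at 4 h, and -0.25 and -0.58 at 6 h.

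HSP82 was lowest on the slides of 4 h, at -1.22 ± 0.23, or 2.33-fold lower (adjusted p = 0.0302). Its mean was -0.35 ± 0.11 (adjusted p = 0.0705). Without the channel 2 slide of 1 h the mean was -0.48, and without the channel 1 slide of 1 h it moved as far the other way. Across the 18 alternatives the mean of HSP82 ran from -0.815 to -0.16, and in 14 of them it did not pass. The spot may also read HSC82, the near-identical constitutive Hsp90 gene. STI1, which links Hsp70 to Hsp90, averaged -0.09, AHA1, which stimulates the Hsp90 ATPase, 0.25, and the cyclophilin CPR7 -0.12. None of the 3 passed. SIS2, the gene that is no chaperone by role, read -0.54 and -0.19 at 1 h, 0.03 and 0.01 at 2 h, -0.09 and -0.03 at 4 h, and -0.15 and -0.04 at 6 h. Its mean of -0.12 did not pass (adjusted p = 0.288).

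By time, calls were few early and more frequent late. At 1 h SSB2 was the only 1 of the 45 to pass, at -1.37 ± 0.21 (adjusted p = 0.0368), and none rose. Among all genes 0.256% rose and 0.544% fell at 1 h. At 2 h SBA1 alone rose and none fell, beside 3.33% higher and 0.863% lower among all genes. As deposited the split at 1 h was 1 higher and 2 lower, beside 1.47% and 1.28% of all genes. The split at 2 h was then 2 higher and 2 lower, beside 2.78% and 4.80%. After quantile normalization 2 were higher and 2 lower at 1 h, beside 1.69% and 3.68%. At 4 h HSP82, SSB2, MGE1 and FPR3 fell and none rose, beside 2.21% lower and 0.608% higher. SSB2 was then at -1.49 ± 0.21 (adjusted p = 0.0149), MGE1 at -1.26 ± 0.20 (adjusted p = 0.0194) and FPR3 at -1.21 ± 0.18 (adjusted p = 0.0167).

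At 6 h HSP12 rose, and SSB1, SSB2, MGE1, CCT5 and FPR3 fell. The shares of all genes were 1.66% higher and 4.35% lower. On the values as deposited the split at 4 h was 6 higher and 7 lower, beside 21.4% and 1.85% of all genes, and at 6 h it was 4 higher and 5 lower, beside 8.19% and 3.39%. MGE1 stood at -1.40 ± 0.20 (adjusted p = 0.00977), SSB2 at -1.16 ± 0.21 (adjusted p = 0.0199) and FPR3 at -0.98 ± 0.18 (adjusted p = 0.0214). SSB1 was at -1.41 ± 0.29 (adjusted p = 0.0335) and CCT5 at -1.42 ± 0.30 (adjusted p = 0.0344). The median of the 45 genes was -0.05 after 1 h, 0.08 after 2 h, -0.13 after 4 h and -0.24 after 6 h, against values from -0.01 to 0.01 for all genes. Except for SBA1 at 2 h, each of these calls at a single time was lost without either slide of that time, which leaves 1 slide there (adjusted p from 0.0721 to 0.716). SSB2 at 1 h was also lost without either slide of 6 h (adjusted p = 0.0789), and SSB1 at 6 h without either slide of 1 h (adjusted p = 0.0547). On faible readings alone SSB2 at 1 h, HSP82 and MGE1 at 4 h, and CCT5 and SSB1 at 6 h did not pass (adjusted p from 0.0811 to 0.140). FPR3 at 6 h did not pass as deposited (adjusted p = 0.0767), nor CCT5 at 6 h with robust variances (adjusted p = 0.0513). In a fit without the orientation term, HSP12 and MGE1 at 6 h were the 2 single-time calls left, and SBA1 at 2 h did not pass (adjusted p = 0.0744).

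**Figure D3:**
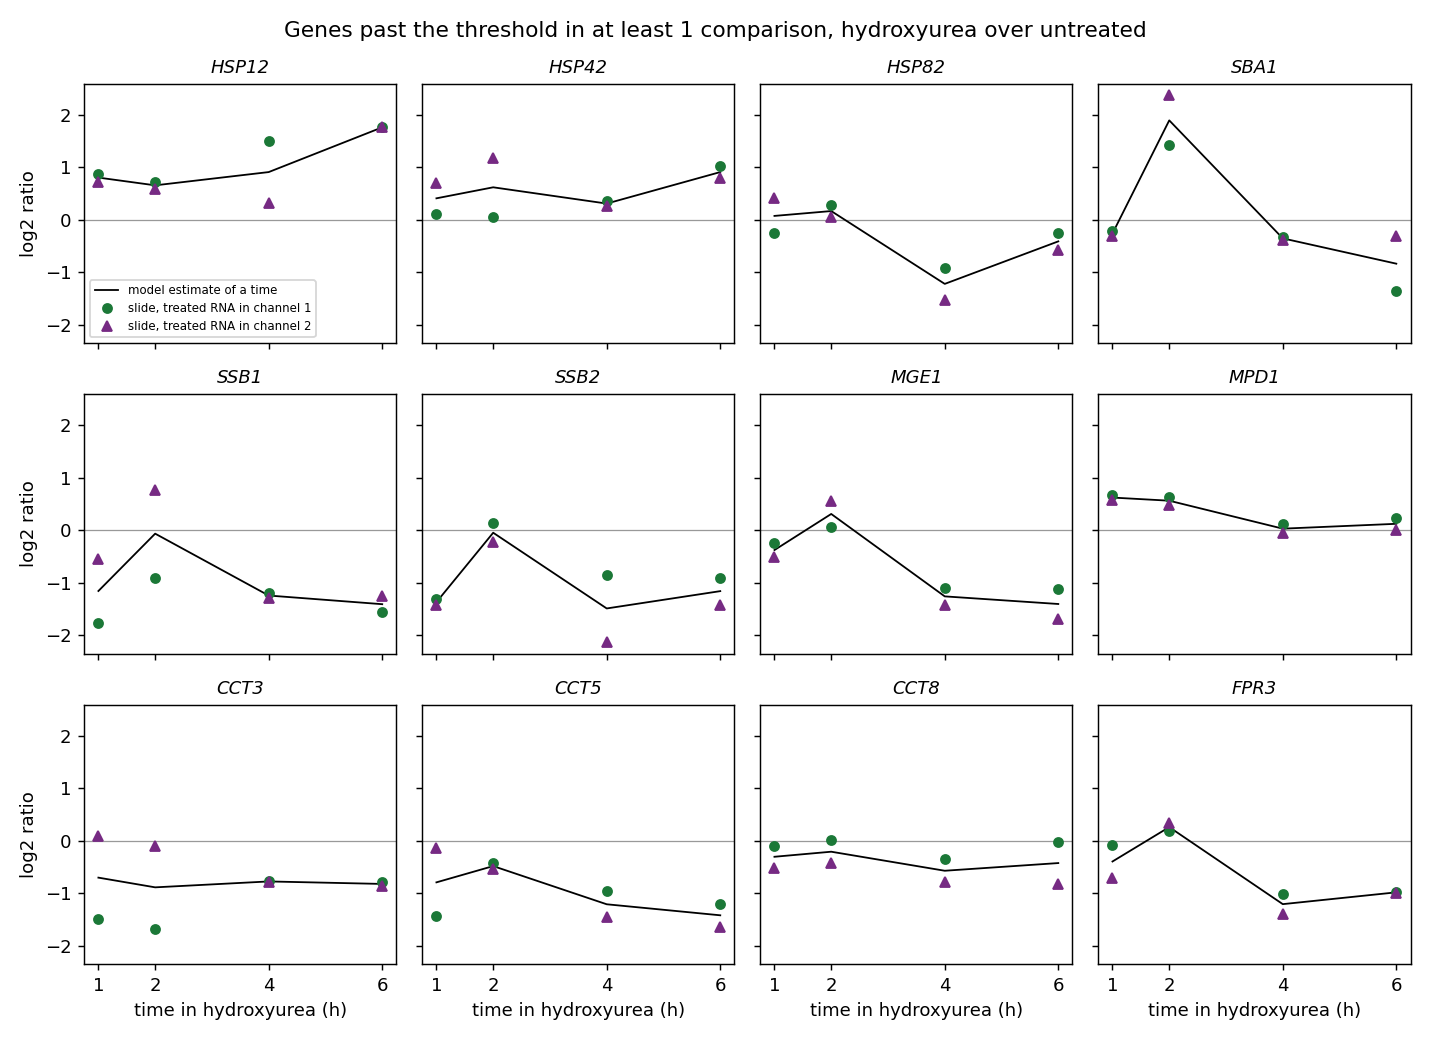
Log2 ratio of treated over untreated RNA against hours in hydroxyurea for the genes that passed in the mean or at a single time. Circles and triangles are the slides with treated RNA in channel 1 and channel 2, and lines join the model's estimates for the 4 times. SBA1 peaks at 2 h at 1.90, MGE1 and FPR3 lie lower at 4 h and 6 h than at 1 h and 2 h, and HSP12 is above 0 at every time and highest at 6 h.

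The differences between times were tested directly and gave no call. In 4 and 6 h minus 1 and 2 h, 0 of the 45 genes passed in limma, while 16 had an unadjusted p under 0.05, of which 2 were higher and 14 lower late. That is 35.6% of the 45, beside 17.6% of all genes (4.80% higher and 12.8% lower), a difference that was not tested. The smallest adjusted p-values were 0.0923 for MGE1, with a difference of -1.30 ± 0.20, and 0.0999 for SBA1, with -1.41 ± 0.24. FPR3 followed at -1.03 ± 0.18 (adjusted p = 0.124) and HSP82 at -0.94 ± 0.23 (adjusted p = 0.136). In 6 h minus 1 h 0 passed and 4 had an unadjusted p under 0.05, or 8.89%, beside 7.58% of all genes. In the F-test over the 4 times 0 passed, with SBA1 the nearest (adjusted p = 0.111). The share of all genes was 0% in each of these tests and in each direction. Without the channel 1 slide of 2 h, 5 of the 45 passed as lower late, beside 4.22% of all genes in that fit, and 2 passed the F-test, beside 1.85%.

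Several of the genes read differently with the treated RNA in channel 1 than in channel 2. The orientation coefficient passed for 7 of the 45 genes, or 15.6%, beside 17.3% of all genes. These were FES1, SSC1, KAR2, SSE2 and CCT4, which read higher in channel 2, and SSA2 and STI1, which read higher in channel 1. The coefficient is the distance of either orientation from their midpoint, signed for channel 1. FES1 had the largest, -1.37 ± 0.29 (adjusted p = 0.0267). It read -2.48 and 2.13 at 1 h, -2.05 and 1.86 at 2 h, -1.41 and 0.25 at 4 h, and -1.29 and -0.54 at 6 h.

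SSC1 and KAR2 followed, with coefficients of -1.24 and -0.95, and their pairs at 1 h were -1.86 and 1.23 for SSC1 and -1.34 and 2.10 for KAR2. Every time has 1 slide of each orientation. A channel effect that is equal and opposite on the paired slides therefore cancels in the estimates of a time and in the mean. Whether it was equal could not be checked with 1 slide per orientation at a time. The gap between the slides of FES1 changed from 4.615 at 1 h to 0.75 at 6 h. The 10 genes called in the mean include none of the 7. The overlap of these calls over all genes was not counted, so this does not show the 10 to be free of channel effects. Across the 45 genes, the correlation between the slides of a time was -0.39 for 1 h, -0.26 for 2 h, 0.42 for 4 h and 0.63 for 6 h, where the genes are not independent replicates. Over all genes the values were -0.08, -0.03, 0.50 and 0.58. Of the 45, 22 had the same sign on both slides of 1 h, 17 on those of 2 h, 27 on those of 4 h and 35 on those of 6 h. The shares of all genes were 44.1%, 41.4%, 64.5% and 67.3%. By each of these measures the slides of 4 h and 6 h resembled each other more than those of 1 h and 2 h.

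**Figure D4:**
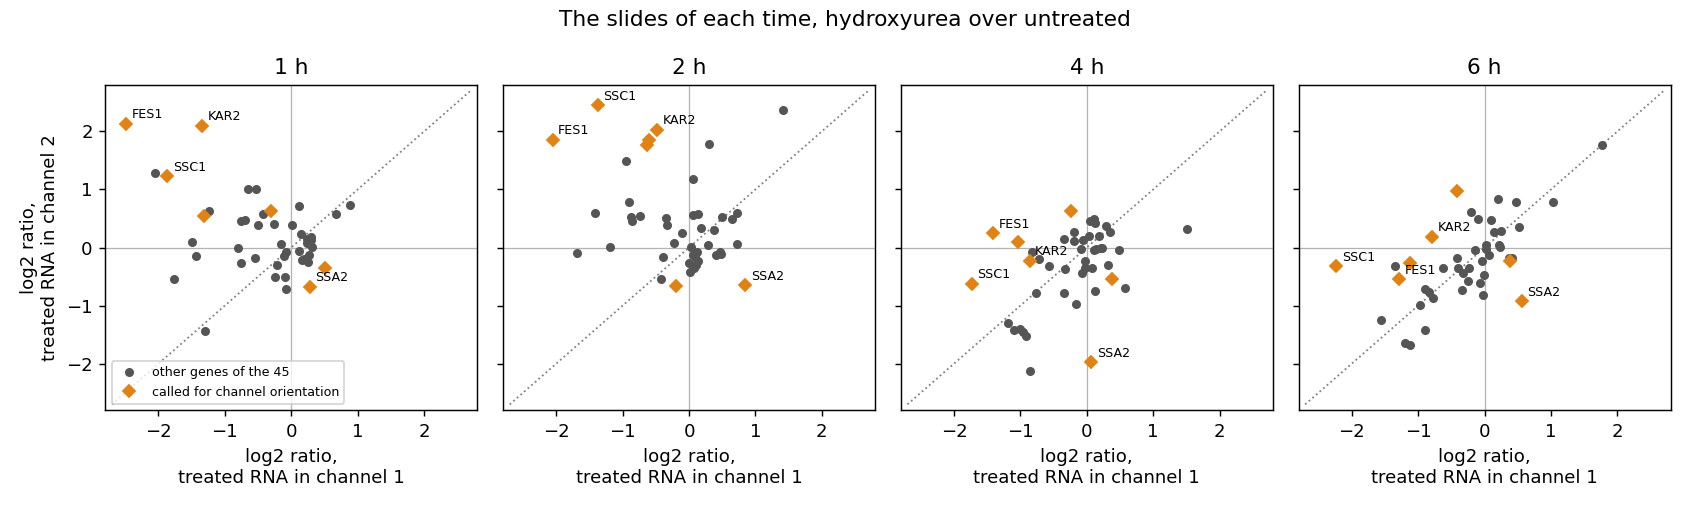
Log2 ratio of each of the 45 genes on the slide with treated RNA in channel 2 (vertical) against that on the slide with treated RNA in channel 1 (horizontal), in a panel per time. Diamonds are the 7 genes called for channel orientation, circles the others, and the dotted line marks equal values. Across genes the correlation is -0.39 for 1 h, -0.26 for 2 h, 0.42 for 4 h and 0.63 for 6 h, with FES1, SSC1 and KAR2 far from the diagonal at 1 h and 2 h.

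Folding genes without a name of the chosen kind were also counted, from a list of co-chaperones and other folding factors. Of the 39 listed, 22 were measured, and in the mean over the times 0 rose and 6 fell, beside the shares of all genes given above. The lowest were EGD2 and EGD1, subunits of the nascent polypeptide-associated complex at the ribosome, at -0.71 (adjusted p = 0.00207) and -0.57 (adjusted p = 0.00571). SHR3, which assists amino acid permeases in the endoplasmic reticulum, stood at -0.45 (adjusted p = 0.0124). PAM18, the J protein of the mitochondrial import motor, stood at -0.35 (adjusted p = 0.0251). The prefoldin subunit PAC10 was at -0.31 (adjusted p = 0.0383) and the Hsp90 co-chaperone CNS1 at -0.49 (adjusted p = 0.0467). At 6 h EGD2, EGD1, SHR3 and PAM18 passed as lower, beside 4.35% of all genes.

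Of 15 listed regulators of the heat shock, general stress and unfolded protein responses, 9 were measured. In the mean 1 rose, beside 6.97% of all genes. This was RPN4, the transcription factor of the proteasome genes, at 0.42 (adjusted p = 0.00764). HSF1, the heat shock factor, was at 0.16 and did not pass (adjusted p = 0.184). The stress kinase YAK1 was at 0.49 (adjusted p = 0.0590). Among genes of other cell states, 8 of 11 haploid mating genes were measured. In the mean MF(ALPHA)1 rose (0.92), beside 6.97% of all genes, and FAR1 and AGA1 fell (-0.88 and -0.59), beside 11.8%. Of 11 meiosis and sporulation genes 4 were measured, and 0 passed in limma. In the mean 1 of them had an unadjusted p under 0.05, beside 33.2% of all genes. The part of cell state in the chaperone values was not tested.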

How the data were processed

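The deposited table held 16 readings of 6912 spots, each value a log ratio between the channels, taken here as log2. The base is not stated in the sources used here, and a natural logarithm is possible, in which case the folds are larger. Per the labels, RNA was taken with a column kit, labelled indirectly and hybridised to 2-colour yeast slides. How the authors made the deposited values, read here as log2, from the scans is not given in the sources used here. Intensities were not used here, so signal over background is unknown, and the number of slides limits the precision.

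Each reading was turned to treated over untreated and given a median of 0 over the 3344 spots with 1 gene name. The 2 readings of a slide, titled faible and fort, were averaged, as were spots of a gene. limma 3.58.1 in R 4.3.3 modelled the 4 times and the channel orientation (3 residual and 4.89 prior degrees of freedom), tested on simulated data before use. Tests covered each time, the mean of the 4 times, late minus early, 6 h minus 1 h and an F-test. Spots that named several genes (387) or none (3181) were left out. The symbols of all 45 genes were found in the RefSeq annotation, and no genome positions are given, since the slide's build is not known.

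The genes and lists were chosen with earlier results of these data known. Full values were given for genes past a threshold in the mean, a single time or a time difference, for the 5 highest and 5 lowest means, and for the largest absolute mean of each role group. A total of 18 alternatives in scaling, readings, spots, model and slides were tried.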

Additional observations from a re-analysis of the deposited data

Results flagged for a closer look

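For 12 of the 45 genes both slides of a time lay above 0 and both slides of another time below 0, as they did for 695 of all 3127 genes, or 22.2%. The differences below are log2 differences of the later minus the earlier time in the widest such pair. Except for HSP10 and MDJ2 these pairs were not tested, and none of the 12 genes passed the F-test among the 4 times (lowest adjusted p 0.111, for SBA1).

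The Hsp90 co-chaperone SBA1 had the widest gap, -2.73 for 6 h minus 2 h, with -0.84 at 6 h and 1.90 at 2 h. The mitochondrial exchange factor MGE1 differed by -1.72 between the same times, and the J protein SIS1 by -1.54. The isomerase FPR3 differed by -1.47 for 4 h minus 2 h, HSP82 by -1.39 and the Hsp70 gene SSA3 by -0.91. The mitochondrial cyclophilin CPR3 differed by -0.81 for 6 h minus 2 h. In these 7 genes 2 h was the time above 0 in the widest pair, on centred values. The share of all genes for which 2 h was that time was not counted. CPR3 was also above 0 on both slides of 1 h (0.23 and 0.15).

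The remaining 5 differed less. HSP10 differed by -0.40 for 6 h minus 1 h (adjusted p = 0.720) and the mitochondrial J protein MDJ2 by 0.57 for the same pair (adjusted p = 0.636). MPD2, a relative of protein disulfide isomerase, differed by -0.48 for 2 h minus 1 h, the prefoldin gene PFD1 by 0.34 for 4 h minus 1 h, and SIS2, no chaperone by role, by 0.38 for 2 h minus 1 h.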

How the results depend on the processing

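HSP12, SSB1, SSB2 and CCT5 kept their calls in the mean over the times under all 18 alternatives. FPR3 and MGE1 lost theirs when the slides of each time were averaged and times served as units (adjusted p = 0.157 and 0.162), CCT3 under 3 alternatives, HSP42 under 5, CCT8 under 7 and MPD1 under 9. Counts in the mean (10 genes, beside 18.8% of all genes) were 17 as deposited (33.3%), 17 after quantile normalization (27.2%), 6 without the orientation term (8.15%) and 22 on the slides of 4 h and 6 h alone (45.3%). They were 6 to 15 with 1 slide left out (7.71% to 26.0%), the lowest without the channel 1 slide of 1 h. At 1 h (1 gene, 0.799%) they were 3 as deposited (2.75%) and 4 after quantile normalization (5.37%). They were 0 without the orientation term or on faible readings (0% and 0.160%). At 2 h (1 gene, 4.19%) they were 4 as deposited (7.58%) and 0 without the orientation term (0.160%). At 4 h (4 genes, 2.81%) they were 13 as deposited (23.2%), 9 after quantile normalization (10.3%) and 0 without the orientation term (0.032%). They were 2 on faible readings (1.34%), 8 on fort readings (5.34%) and 14 on the late slides alone (16.5%). At 6 h (6 genes, 6.01%) they were 11 after quantile normalization (12.7%) and 2 without the orientation term (0.895%). On the late slides alone the count was 19 (28.7%). Late minus early (0 genes) gave 4 as deposited (2.49%) and 4 after quantile normalization (2.05%). The F-test (0 genes) gave 2 as deposited (2.75%) and 1 after quantile normalization (0.256%). With 1 slide left out, the counts for each time, late minus early and the F-test moved as well. The shares of all genes moved in each of these tests too. Such fits leave 1 slide at a time, so these counts are not listed here. The count of 6 h minus 1 h was 0 under every alternative that gave one. The mean of SBA1 turned to -0.034 after quantile normalization and to -0.59 on the late slides alone, and that of SIS2 to 0.066 as deposited. The cause of these changes was not tested, except that fits on fewer slides have less data by construction and the late slides alone leave 1 residual degree of freedom. The fit of the values as deposited gave every gene the same variance.

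The labels give no replicate numbers, so slides of different times could not be paired by culture. Channel orientation, which slides of all 4 times share, was a term of the model. Untreated and treated RNA were compared within each slide. With 2 slides per time, unknown intensities, an unstated log base and numerator, and probes whose sequences were not used here, small changes, close paralogs (SSB1 and SSB2, HSP32 and HSP33, HSP82, the SSA genes) and weakly lit spots could not be resolved.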
